A study of Mus musculus with 8 samples.

Results

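Tubulins and the proteins that bind, move along or cut back microtubules were described in cortex from P1 control mice and from dcKO_Nex-Cre mutants. The 46 genes were chosen by symbol: 14 alpha-, beta- and gamma-tubulin genes, 3 of the doublecortin family, 9 lattice-binding microtubule-associated proteins (MAPs), 4 stathmins, 7 plus-end and 3 minus-end proteins, 4 genes of the LIS1-dynein pathway and 2 kinesins. All 46 were found among the 48709 genes listed, and 45 were among the 16287 genes tested, *Tuba8* being too low. Each group had 4 samples with 1 RNA-seq library each, made from whole cortical tissue at postnatal day 1, on a C57BL6/J background. Controls were Cre negative and heterozygous, with 1 floxed allele of each gene (BAF155fl/+, BAF170fl/+). In the dcKO_Nex-Cre cortex, floxed BAF155 (*Smarcc1*) and BAF170 (*Smarcc2*), both scaffold subunits of the BAF chromatin remodelling complex, were deleted by Nex-Cre, which is active in postmitotic principal neurons. Interneurons, glia, vessels and progenitors of the same tissue keep both genes, and the controls carry no Cre. The sample labels give control or mutant and the age, and the Cre line comes from the paper's account of its P1 mutant.

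Microtubules are hollow polymers of alpha- and beta-tubulin dimers, nucleated from gamma-tubulin and stabilized, bundled, severed or walked along by associated proteins. In a migrating cortical neuron they form the cage around the nucleus and the tracks in the leading process, and dynein with its regulator LIS1 pulls the nucleus forward. Mutations of *TUBA1A*, *TUBB2B*, *TUBB3*, *DCX* and *PAFAH1B1* in people cause lissencephaly and related disorders of neuronal migration.

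Tubulin isotypes are encoded by genes of related coding sequence, nearly the same in some pairs, which sets how well short reads can be assigned to each. The first 60 coding bases of the 4 beta-tubulin genes highest per kilobase follow (GENCODE M21, GRCm38, sense strand from the start codon). Capitals mark a base that differs from *Tubb2a*, at 5 positions in *Tubb2b*, 8 in *Tubb3* and 7 in *Tubb5*.
Tubb2a: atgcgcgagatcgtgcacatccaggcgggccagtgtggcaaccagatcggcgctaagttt
Tubb2b: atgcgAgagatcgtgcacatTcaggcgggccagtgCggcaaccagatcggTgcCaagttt
Tubb3: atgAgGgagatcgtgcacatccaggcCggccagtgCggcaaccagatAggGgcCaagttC
Tubb5: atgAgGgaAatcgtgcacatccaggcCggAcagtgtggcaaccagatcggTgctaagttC
*Tubb2a* and *Tubb2b* shared 96.5% of coding bases, with an identical run of 551 bases, against 84.3% for *Tubb2a* and *Tubb3*. Among the alpha-tubulins, *Tuba1a* shared 98.3% of coding bases with *Tuba1b*, 97.6% with *Tuba1c* and 85.3% with *Tuba4a*. Of all 50-base windows in the transcripts of a gene, 72.9% for *Tuba1a*, 66.7% for *Tuba1b*, 52.7% for *Tuba1c*, 49.6% for *Tubb2a*, 37.8% for *Tubb4b* and 36.9% for *Tubb2b* also occur in another gene, a neighbour in the family or a pseudogene. For *Tuba4a* the share was 0.81%, and for *Tubb3* it was 0. Counts of *Tuba1a*, *Tuba1b*, *Tuba1c*, *Tubb2a*, *Tubb2b* and *Tubb4b* are therefore uncertain in how reads were split between copies. *Tuba1a* lies on the minus strand at chr15:98949837-98953703, *Tuba1b* beside it at chr15:98931425-98934565, and *Tuba4a* at chr1:75214228-75219865, also on the minus strand.

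Total counts were 17958641 to 35191912 per library, and levels are given as CPM, counts scaled to a common library size after TMM normalization. The deleted genes were checked first. *Smarcc1* was at 141, 146, 164 and 139 CPM in control replicates 1 to 4 and at 93.0, 122, 100.2 and 93.4 CPM in the dcKO_Nex-Cre cortex (log2 fold change -0.53 ± 0.10 SE, adjusted p = 0.0348, edgeR). *Smarcc2* was at 456, 486, 478 and 429 CPM in the control and 241, 292, 241 and 278 CPM in the mutant (-0.81 ± 0.09, adjusted p = 0.00267, edgeR). Every mutant library was below every control library for both genes. *Smarcc1* missed the threshold when any 1 control was left out (adjusted p of 0.0784 to 0.132, edgeR). There were 2 libraries that stood apart from their groups along the first principal component. Control replicate 2 and dcKO_Nex-Cre replicate 4 also had the highest mitochondrial shares of counts, 6.87% and 6.15% against 2.33% to 4.24% in the others. The controls and mutant replicates 1 and 2 carry lane tag 2, and mutant replicates 3 and 4 carry lane tag 8, which no control does. Nothing in the labels says that the samples are separate animals, so p-values measure only the spread between these samples.

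None of the 45 tested genes passed an adjusted p of 0.05 by edgeR's quasi-likelihood test, beside 0.884% of all genes tested. With a share that small, a count of 0 among 45 genes does not set them apart from other genes. limma-voom also called none. DESeq2's Wald test called 1, *Tuba4a*, against 2.78% of all genes it tested. At an unadjusted p under 0.05, 2 genes were lower in the mutant (*Tuba4a* and the kinesin *Kif2a*) and 1 was higher (*Tubg2*), together 3 of 45 against 13.6% of all genes at this level (7.05% lower, 6.59% higher). The groups did not overlap for 2 of 45, *Kif2a* and *Tubg2*, against 8.0% of all genes. Fold changes lay below 0 for 26 genes and above 0 for 19, with a median log2 fold change of -0.022 (0.0043 over all genes). The 95% interval of the log2 fold change stayed within 0.5 of 0 on either side, a 1.41-fold difference, for 42 of 45 genes, against 58.6% of all genes. The 3 exceptions were *Tuba4a*, *Nde1* and *Dync1h1*. Intervals narrow with more counts, and the 45 genes had from 161 (*Tubb6*) to 124140 (*Tuba1a*) counts per library on average. No share was taken over genes of similar counts, so the difference from all genes does not set the 45 apart. The tissue is a mixture, so fewer cells of a type and less RNA per cell cannot be told apart in any of these values.

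**Figure D1:**
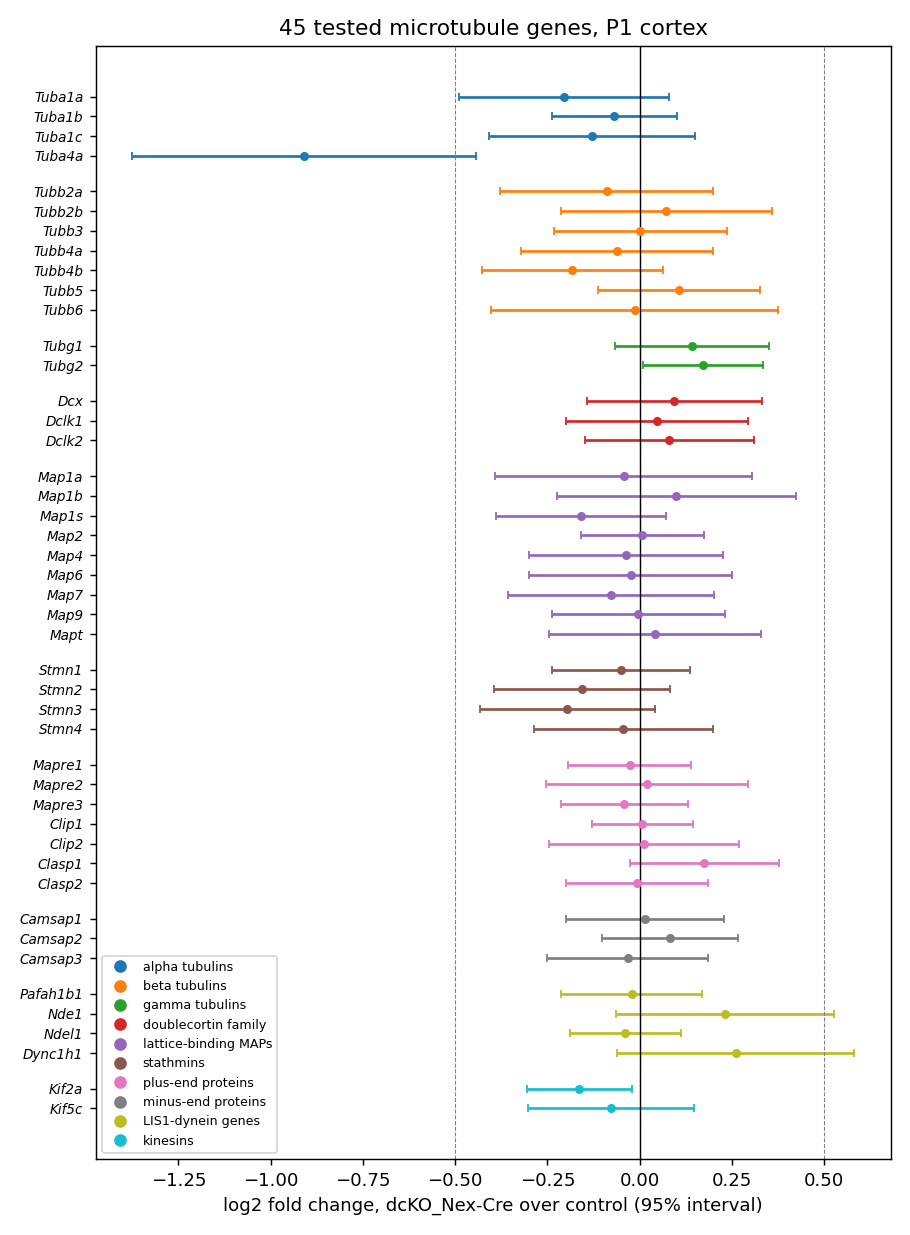
Log2 fold change (dcKO_Nex-Cre over control, x axis) of the 45 tested genes, coloured by role, with bars for the 95% interval of the edgeR fit over 4 control and 4 mutant libraries. Dashed lines mark 0.5 on either side of 0; *Tuba4a* at -0.91 lies apart from the others, which run from -0.21 to 0.26.

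Among the alpha-tubulins, which carry the non-exchanged GTP of the dimer, *Tuba4a* had the largest difference. It was at 28.6, 16.5, 23.7 and 35.0 CPM in control replicates 1 to 4 and at 17.6, 11.2, 13.9 and 12.3 CPM in dcKO_Nex-Cre replicates 1 to 4. All 4 mutant libraries were below 3 of the 4 controls, and mutant replicate 1 was above control replicate 2, so the groups overlapped. The mutant mean was 53.1% of the control mean, with a log2 fold change of -0.91 ± 0.21 SE (95% interval -1.38 to -0.44, adjusted p = 0.0809, edgeR) and p = 0.0571 in a two-sided exact permutation test, in which 4 against 4 samples cannot go below 0.0286. By DESeq2 the value was -0.91 with an adjusted p of 0.00262. It did not pass by limma-voom (-0.87, adjusted p = 0.108) or by edgeR with no filter (-0.90, adjusted p = 0.267). Of the 8 edgeR fits that each left out 1 library, it passed in 1, without control replicate 2 (-1.06, adjusted p = 0.0281). Adjusted p-values of the others reached 0.244. Within lane tag 2 (4 control and 2 mutant libraries) edgeR gave -0.84 with an adjusted p of 0.168. *Tuba4a* shares 1379 exon bases, 37.3% of its exons, with *Stk16*, a protein kinase gene on the opposite strand. The library kit does not mark strand, so reads from this stretch cannot be told apart. *Stk16*, with 1654 counts on average against 468 for *Tuba4a*, was at 67.5, 82.0, 76.6 and 72.3 CPM in the control and 62.5, 64.3, 64.4 and 78.0 CPM in the mutant (-0.15, adjusted p = 0.489, edgeR). The part of *Stk16* reads in the *Tuba4a* counts was not tested.

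*Tuba1a*, the main alpha-tubulin of young neurons, was by far the most abundant gene of the 46 per kilobase of exon, at 3182 CPM per kilobase in the control against 1183 for *Tubb3*, the next. Its levels were 5746, 5533, 5902 and 5766 CPM in the control and 4483, 4328, 4516 and 6578 CPM in the mutant. Mutant replicates 1 to 3 were below every control library, and mutant replicate 4 was above every one. Over all libraries the log2 fold change was -0.21 ± 0.13 (adjusted p = 0.502, edgeR). Without mutant replicate 4 it was -0.36 with an adjusted p of 0.0167, and within lane tag 2 it was -0.38 with an adjusted p of 0.0728. *Tuba1c*, the gene with which *Tuba1a* shares the most windows, was also highest in mutant replicate 4, at 216 CPM against 143 to 170 CPM in mutant replicates 1 to 3 and 166 to 201 CPM in the control. *Tuba1b* was at 57.1 to 70.5 CPM in all 8 libraries and *Tuba8* at 0 to 0.165 CPM.

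All 7 beta-tubulin genes had overlapping groups and adjusted p-values of 0.486 or more (edgeR). *Tubb3*, the neuron-restricted isotype, was at 2279, 1863, 2424 and 2275 CPM in the control and 2538, 2079, 2219 and 2017 CPM in the mutant. The log2 fold change of *Tubb3* was 0.0018 ± 0.11, with a 95% interval of -0.23 to 0.24, and its sign turned with the setting. *Tubb2b* was at 2681, 1982, 2903 and 2651 CPM in the control and 3150, 2504, 2744 and 2343 CPM in the mutant (0.07 ± 0.13, adjusted p = 0.832, edgeR). For both genes control replicate 2 was the lowest of all 8 libraries. *Tubb5*, the broadly expressed class I isotype, was at 3852, 3186, 4103 and 3826 CPM in the control and 4485, 3827, 4074 and 3737 CPM in the mutant (0.11 ± 0.10, adjusted p = 0.649, edgeR). *Tubb2a*, *Tubb4a*, *Tubb4b* and *Tubb6* had log2 fold changes of -0.09, -0.06, -0.18 and -0.01.

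The make-up of the tubulin pool was set out as the share of each gene in the summed level per kilobase of its family. How reads shared between genes were counted is not known, and 72.9% of the windows of *Tuba1a* are shared. Levels were divided by the full exon length, shared windows included. This limits the alpha-tubulin shares, those of *Tubb2a*, *Tubb2b* and *Tubb4b*, both sums and their ratio. *Tuba1a* took 96.3% ± 0.22 (SD, n = 4) of the 5 alpha-tubulins in the control and 96.1% ± 0.34 (n = 4) in the mutant, and *Tuba4a* 0.21% ± 0.06 and 0.13% ± 0.04. Of the 7 beta-tubulins, *Tubb3* took 28.4% ± 0.63 in the control and 27.7% ± 0.20 in the mutant, *Tubb5* 27.0% ± 0.79 and 28.4% ± 0.61, *Tubb2b* 26.5% ± 0.88 and 27.3% ± 0.75, and *Tubb2a* 13.4% ± 0.91 and 12.4% ± 0.45. The groups did not overlap for the shares of *Tubb3* and *Tubb4a*, both lower in the mutant, by 0.67 and 0.23 percentage points. For *Tubb3* the lowest control share was 27.96% and the highest mutant share 27.80%. Shares of a family sum to 100% and are not independent, and the level of *Tubb3* itself had a log2 fold change of 0.0018. Without control replicate 2 the difference of the *Tubb3* share was -0.37 and that of the *Tubb2b* share 0.35, against 0.74 with it. The largest difference of a share was that of *Tubb5*, 1.39 percentage points. The summed alpha-tubulin level was 3301, 3184, 3403 and 3329 CPM per kilobase in the control and 2598, 2498, 2606 and 3780 in the mutant. The summed beta-tubulin level was 4360, 3406, 4603 and 4357 CPM per kilobase in the control and 4896, 4004, 4337 and 3886 in the mutant. The ratio of alpha to beta was 0.757, 0.935, 0.739 and 0.764 in the control and 0.531, 0.624, 0.601 and 0.973 in the mutant. Control replicate 2 and mutant replicate 4, the libraries that stood apart, had the highest ratio of their group, and the other 3 mutant libraries had lower ratios than every control.

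**Figure D2:**
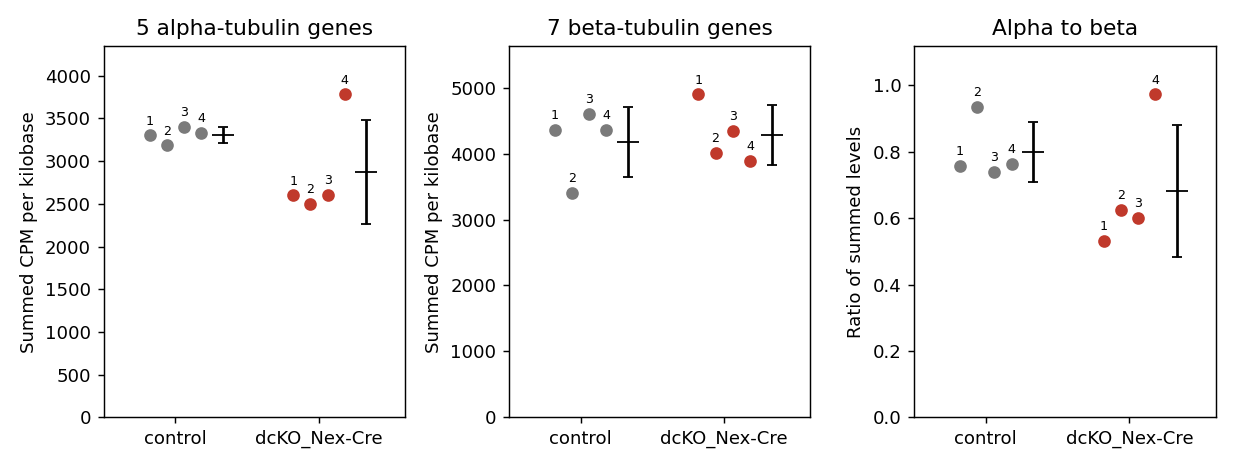
Summed level per kilobase of exon of the 5 alpha-tubulin and 7 beta-tubulin genes and the ratio of both sums, per library (points with replicate numbers) with mean and SD (bars) for control and dcKO_Nex-Cre. Mutant replicates 1 to 3 lie at 2498 to 2606 CPM per kilobase for alpha-tubulin, below the controls at 3184 to 3403, and replicate 4 lies above them at 3780. How reads shared between genes were counted is not known, which limits both sums and the ratio.

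Gamma-tubulin, the nucleating member of the family, is encoded by *Tubg1* and *Tubg2*, which lie close together on chromosome 11. *Tubg2* (chr11:101155907-101161787) was at 33.2, 30.9, 34.4 and 34.0 CPM in the control and 39.7, 36.2, 37.5 and 35.8 CPM in the mutant. Every mutant library was above every control library, and the mean was 113% of control. The difference did not pass after adjustment (0.17 ± 0.07, 95% interval 0.01 to 0.33, adjusted p = 0.339, edgeR), and p = 0.0286 in the exact permutation test is the smallest possible. Within lane tag 2 it was 0.20 with an adjusted p of 0.208. *Tubg1*, with which *Tubg2* shares 14.3% of its 50-base windows, was at 40.6 to 49.9 CPM in the control and 45.5 to 57.9 CPM in the mutant (0.14, adjusted p = 0.523, edgeR).

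The doublecortin family stabilizes microtubules in migrating neurons and growing axons. *Dcx* was at 1612, 1793, 1887 and 1477 CPM in the control and 2057, 1795, 1812 and 1560 CPM in the mutant, with overlapping groups (0.09 ± 0.11, 95% interval -0.14 to 0.33, adjusted p = 0.720, edgeR). *Dclk1* and *Dclk2*, doublecortin-like kinases, had log2 fold changes of 0.05 and 0.08.

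The 9 lattice-binding MAPs, which coat and space microtubules in axons and dendrites, had log2 fold changes between -0.16 (*Map1s*) and 0.10 (*Map1b*), 6 below and 3 above 0. The closest to 0 were *Map9*, at -0.0032, and *Map2*, the dendritic MAP, at 0.0072, with a 95% interval for *Map2* of -0.16 to 0.17. *Mapt*, the gene of tau, was at 1685 to 2007 CPM in the control and 1541 to 2441 CPM in the mutant (0.04), and its lowest and highest libraries were both mutants, replicates 4 and 1. *Map1a*, *Map1b*, *Map4* and *Map6* shared this order, with replicate 1 the highest and replicate 4 the lowest of the mutant group. Their log2 fold changes were -0.04, 0.10, -0.04 and -0.02. *Map7*, which recruits kinesin-1, was at 6.96 to 9.56 CPM in all libraries (-0.08).

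The stathmins bind free tubulin and promote shortening of microtubules. All 4 had fold changes below 0, from -0.04 (*Stmn4*) to -0.20 (*Stmn3*), and none passed the test. *Stmn3* was at 754, 779, 740 and 789 CPM in the control and 629, 573, 644 and 825 CPM in the mutant (-0.20 ± 0.11, adjusted p = 0.446, edgeR). As with *Tuba1a*, mutant replicates 1 to 3 were below every control and replicate 4 above every one. Without replicate 4 the value for *Stmn3* was -0.31 with an adjusted p of 0.0326, and within lane tag 2 it was -0.35 with an adjusted p of 0.0822. *Stmn2*, a stathmin of growing axons, was at 1917 to 2418 CPM in the control and 1675 to 2149 CPM in the mutant (-0.16, adjusted p = 0.538, edgeR), and *Stmn1* was at 216 to 270 CPM in all 8 libraries (-0.05).

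Plus-end proteins track or anchor the growing end. The end-binding genes *Mapre1*, *Mapre2* and *Mapre3* had log2 fold changes of -0.03, 0.02 and -0.04, the linker genes *Clip1* and *Clip2* 0.0076 and 0.01, and *Clasp2* -0.0070. *Clasp1*, which promotes rescue of shrinking ends, was at 193 to 214 CPM in the control and 199 to 264 CPM in the mutant (0.18 ± 0.09, adjusted p = 0.420, edgeR). The minus-end proteins *Camsap1*, *Camsap2* and *Camsap3*, which hold non-centrosomal microtubules, had log2 fold changes of 0.01, 0.08 and -0.03.

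In the LIS1-dynein pathway, which pulls the nucleus and the centrosome in migrating neurons, *Pafah1b1* (the gene of LIS1) was at 550, 500.5, 561 and 536 CPM in the control and 575, 519, 559 and 462 CPM in the mutant. These groups overlapped (-0.022 ± 0.09, 95% interval -0.21 to 0.17, adjusted p = 0.932, edgeR), and the sign of the difference turned with the setting. *Dync1h1*, the heavy chain of cytoplasmic dynein, was at 507, 494, 526 and 484 CPM in the control and 750, 611, 634 and 414 CPM in the mutant. Mutant replicates 1 to 3 were above every control library and replicate 4 below every one. The log2 fold change was 0.26 ± 0.15 (adjusted p = 0.453, edgeR), 0.41 without replicate 4 (adjusted p = 0.0215) and 0.44 within lane tag 2 (adjusted p = 0.0626). *Nde1* and *Ndel1*, which tie LIS1 to dynein, had log2 fold changes of 0.23 and -0.04.

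*Kif2a*, a kinesin that takes subunits off microtubule ends and does not walk, was at 172, 171, 172 and 171 CPM in the control and 154, 153, 145 and 161 CPM in the mutant. Every mutant library was below every control library. The control libraries had an SD of 0.65 CPM, which is smaller than counting error alone would give at such counts and so understates their spread. The mutant mean was 89.3% of the control mean (-0.16 ± 0.06, 95% interval -0.30 to -0.02, adjusted p = 0.297, edgeR), with p = 0.0286 in the exact permutation test. The value within lane tag 2 was -0.16 with an adjusted p of 0.228. *Kif2a* (chr13:106958996-107022126, minus strand) shares 1229 exon bases, 19.2% of its exons, with *Dimt1* on the other strand, whose counts were 257.5 per library on average against 3821 for *Kif2a*. The other tested genes shared at most 9.32% of their exons with a gene on the other strand, the most being *Camsap3* with *Xab2*. *Kif5c*, a neuronal heavy chain of kinesin-1 that walks to plus ends, was at 776 to 874 CPM in the control and 666 to 912 CPM in the mutant (-0.08, adjusted p = 0.760, edgeR).

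**Figure D3:**
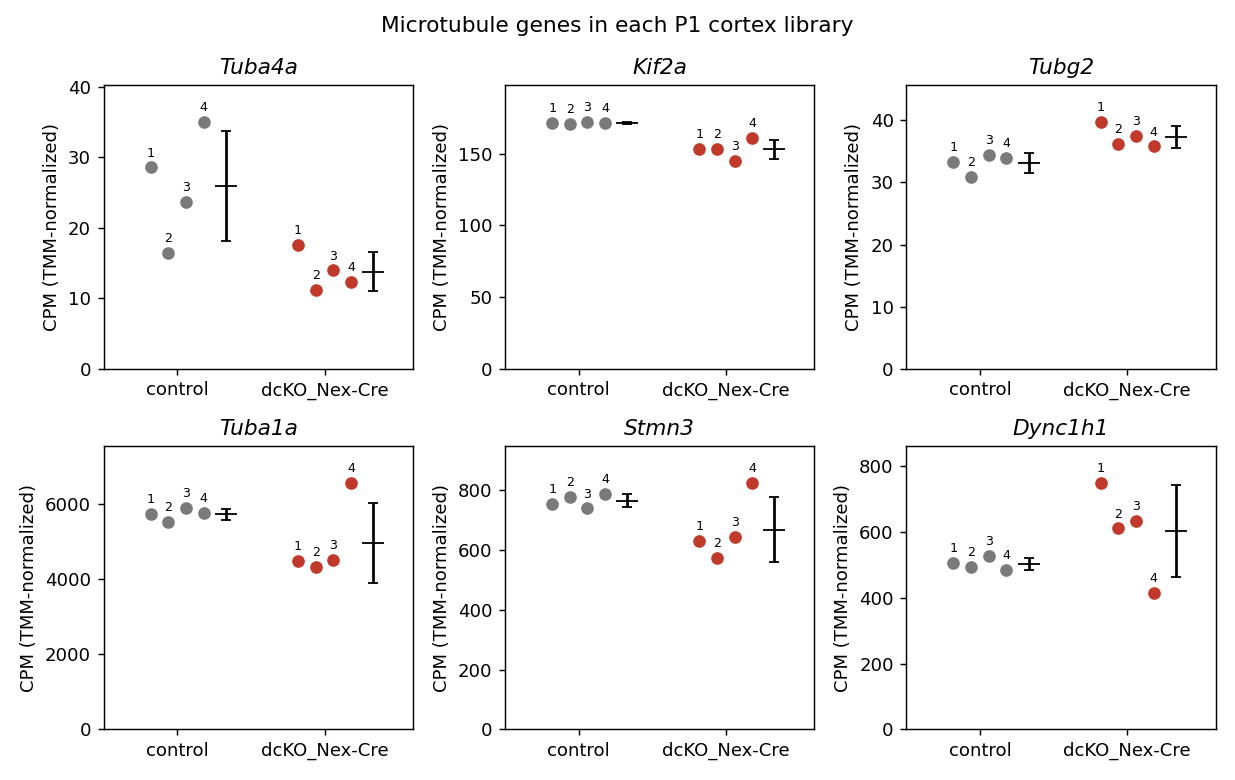
CPM per library (y axis, from 0; points with replicate numbers) with mean and SD (bars) for 6 genes in control and dcKO_Nex-Cre cortex, 4 libraries each. *Kif2a* and *Tubg2* have groups that do not overlap, and *Tuba1a*, *Stmn3* and *Dync1h1* each have mutant replicate 4 on the other side of the controls from mutant replicates 1 to 3.

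Mutant replicate 4 decided several of these values. It was the lowest library of its group for 29 of the 45 genes and the highest for 9, while mutant replicate 1 was the highest for 32. Across the 45 genes its log2 deviation from the other 3 mutants had a Pearson correlation of -0.50 with the log10 of exon length, and across 16244 genes of -0.27. Other libraries had correlations of similar size over the 45 genes, 0.44 for control replicate 2 (-0.12 over 16244 genes) and 0.43 for mutant replicate 1 (0.22). These are descriptions across genes that share a library and its depth, and genes are not independent. *Dync1h1*, with 15658 exon bases, lay 0.68 below the other mutants on the log2 scale, and *Stmn3*, with 1136 bases, 0.42 above them. Not all genes followed this order. Of the 14 genes under 2500 bases, 6 lay above the other mutants, and of the 12 with 10000 bases or more, 2 did. *Map2* with 16449 bases lay 0.04 above and *Tubb6* with 2437 bases 0.44 below. Without mutant replicate 4, 3 of the 45 genes passed the test (*Tuba1a* and *Stmn3* lower, *Dync1h1* higher), which is 6.67%, against 7.73% of all genes in the same fit. The groups then did not overlap for 6 of the 45, against 27.2% of all genes, and without control replicate 2 for 5, against 12.7%. Without control replicate 2 and mutant replicate 4 together, a choice made after seeing the data, 6 passed (13.3%): *Tuba1a*, *Tuba4a*, *Tubb4b* and *Stmn3* were lower and *Clasp1* and *Dync1h1* higher, against 11% of all genes. Within lane tag 2 none of the 45 passed by edgeR, beside 1.48% of all genes, again too small a share to set them apart. At an unadjusted p under 0.05, 3 were lower and 3 higher in that fit, where 23.5% of all genes lay. The part of lane, length and mitochondrial share in these values was not tested.

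**Figure D4:**
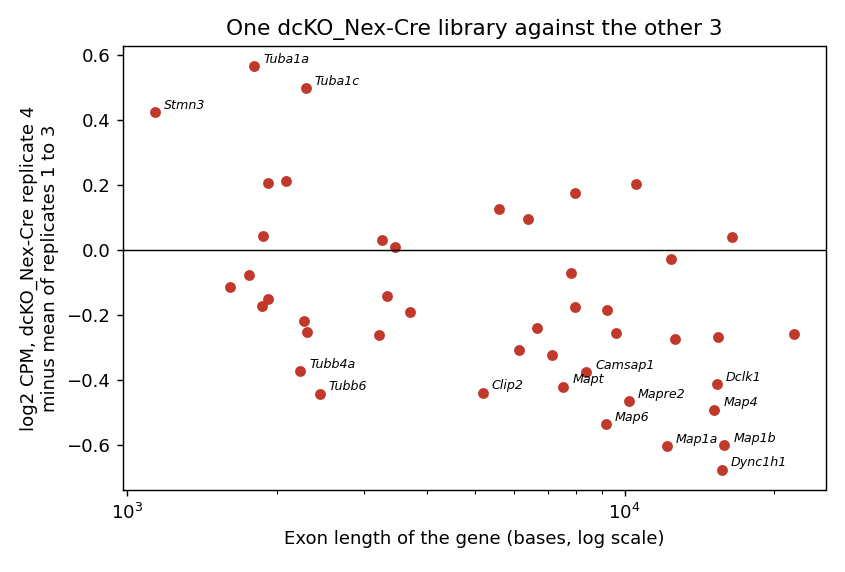
Log2 CPM of dcKO_Nex-Cre replicate 4 minus the mean of replicates 1 to 3 (y axis) against the exon length of the gene in bases (x axis, log scale) for the 45 tested genes. Of the 14 genes under 2500 bases, 6 lay above 0, *Tuba1a*, *Tuba1c* and *Stmn3* among them. Of the 12 genes with 10000 bases or more, 2 lay above 0, and *Dync1h1*, *Map1a* and *Map1b* lay below it.

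Beyond these 46 genes, 164 other microtubule genes were listed by role and 159 were tested. By edgeR, 1 fell, *Dynll1*, a light chain of cytoplasmic dynein, and none rose, against 0.884% of all genes. *Dynll1* was at 273, 353, 263 and 254 CPM in the control and 205, 188, 204 and 190 CPM in the mutant. Every mutant library was below every control, and the mean was 68.9% of control (-0.54 ± 0.11, adjusted p = 0.0439, edgeR). It no longer passed in 8 of 16 alternatives, within lane tag 2 among them (-0.54, adjusted p = 0.0726). At an unadjusted p under 0.05, 11 were lower and 13 higher, where 7.05% and 6.59% of all genes lay, and the median log2 fold change was 0.05. Beside the same shares of all genes, 3 of 37 other kinesins were lower and 2 higher at this level, 3 and 1 of 28 folding and modification genes, 3 and 1 of 25 other dynein and dynactin genes, 1 and 8 of 47 other lattice and plus-end proteins, 0 and 1 of 13 genes of the gamma-tubulin ring complex and other tubulins, and 1 and 0 of 9 severing enzymes. Without control replicate 2 and mutant replicate 4, again chosen after seeing the data, 9 of 159 fell and 14 rose, against 11% of all genes called in that fit.

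Because the tissue is a mixture, markers of cell types were read in the same fit. Of 14 markers of excitatory cortical neurons, 2 fell, where 0.884% of all genes were called in either direction. These were *Neurod6*, the locus into which Nex-Cre was inserted, at 60.0% of control (adjusted p = 0.0192, edgeR), and *Emx1* at 65.9% (adjusted p = 0.0332, edgeR). At an unadjusted p under 0.05, 4 of the 14 were lower and 1 higher, where 7.05% and 6.59% of all genes lay. The summed level of the 14 was 2163 to 2496 CPM in the control and 1963 to 2145 CPM in the mutant, so these sums did not overlap. Without *Neurod6* the other 13 summed to 1578 to 1746 CPM in the control and 1542 to 1734 CPM in the mutant, which overlapped, and 5 of the 14 had fold changes above 0. None of 11 interneuron markers, 10 markers of cycling cells or 12 of radial glia and astrocytes passed by edgeR (at an unadjusted p under 0.05, 1, 0 and 3 of them). *Cspg4* of 8 oligodendrocyte lineage markers, *C1qb* of 9 microglia markers and *Ppp1r1b* of 7 striatal markers rose, to 147%, 138% and 194% of control. At an unadjusted p under 0.05, 1 oligodendrocyte lineage marker was lower and 4 higher, 1 and 3 microglia markers, and 0 and 1 striatal markers. The summed striatal markers ranged from 88.2 to 135 CPM in the control and 94.5 to 261 CPM in the mutant, and no marker of these 3 lists was under 0.5 CPM. No marker of intermediate progenitors, vessels, blood, meninges, choroid plexus, Cajal-Retzius cells or thalamus passed by edgeR, with 2 at an unadjusted p under 0.05. The summed choroid plexus and ependymal markers varied most, from 37.2 to 1353 CPM in the control and 20.2 to 590 CPM in the mutant. The part of these shifts in the values of the microtubule genes was not tested.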

How the data were processed

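RNA was isolated from whole P1 cortex, and libraries were made with a kit that does not mark strand. For all 4 control and 4 dcKO_Nex-Cre samples, the values deposited by the authors are raw read counts by Ensembl identifier, not normalized. The submitters' processing notes name the mm10 genome build. The aligner, the counting program and its strand setting are not given in the sources used here. Of 48709 genes listed, 48349 were matched to GENCODE M21 (GRCm38), and all 46 microtubule genes were found.

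The groups were compared in edgeR 4.0.16 (R 4.3.3), after filterByExpr and TMM normalization, by the robust quasi-likelihood F test, two-sided, with no covariate. Benjamini-Hochberg adjustment took in all 16287 genes tested, with a threshold of 0.05. Intervals are 95% intervals from the same fit. For single genes, CPM values also went into an exact permutation test (70 regroupings, two-sided). CPM per kilobase was divided by the union of exons. Shared sequence was counted in windows of 50 bases over all annotated transcripts. Total counts of 17958641 to 35191912 per library and a biological coefficient of variation of 0.143 set the precision.

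Alternatives tried were edgeR with DESeq2 size factors, DESeq2 1.42.0, limma-voom (limma 3.58.1), no filter, at least 10 counts in every library, the replicate number as a block, lane tag 2 only, and each library left out. Lane tags come from the names of the deposited files. The genes and lists were chosen with earlier results of these data known. Values in every library are given for those of the 46 genes with an adjusted or unadjusted p under 0.05 or groups that do not overlap, for the alpha- and beta-tubulin gene most abundant per kilobase, and for *Tuba1a*, *Tubb2b*, *Tubb3*, *Dcx* and *Pafah1b1*. *Stmn3*, *Dync1h1*, *Tubb5* and the comparison by exon length were added after their values were seen. Figures were made in Python 3.11.15 with matplotlib 3.10.9. Some sequences are not reported here.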

Additional observations from a re-analysis of the deposited data

Results flagged for a closer look

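In 6 of 90 groups of 4 libraries (45 genes in each group), the highest or lowest library lay far from the other 3 by Dixon's criterion, where chance alone gives about 1 in 20, or 4.5. *Tuba1a* was at 6578 CPM in dcKO_Nex-Cre replicate 4 against 4328 to 4516 CPM in the other mutant libraries. *Stmn2* was at 1675 CPM in dcKO_Nex-Cre replicate 2 against 2089 to 2149 CPM in the others. Control replicate 2 was low for *Tubb2a*, at 681 CPM against 961 to 1013 CPM, and high for *Dclk2*, at 381 CPM against 285 to 301 CPM, and for *Mapre3*, at 109.6 CPM against 90.9 to 93.8 CPM. *Map7* was at 9.56 CPM in control replicate 4 against 7.46 to 7.77 CPM in the other controls. The causes were not tested.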

How the results depend on the processing

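The count of 0 calls among the 45 genes recurred in 12 of 16 alternatives, in which at most 1.48% of all genes were called. DESeq2 called 1, leaving out each library gave 0 to 3 (3 without dcKO_Nex-Cre replicate 4 and 1 without control replicate 2), and leaving out control replicate 2 and dcKO_Nex-Cre replicate 4 together, chosen after seeing the data, gave 6. At an unadjusted p under 0.05, the 2 lower and 1 higher became 1 and 0 with no filter (9.29% of all genes, both directions), 1 and 0 with the replicate block (12.1%), 7 and 5 without both libraries (28.4%), 3 and 3 within lane tag 2 (23.5%), and 1 to 5 lower and 0 to 6 higher with each library left out (9.62% to 28.2%). Genes whose groups did not overlap numbered 2 to 6 with each library left out, 5 without control replicate 2 (12.7% of all genes) and 6 without dcKO_Nex-Cre replicate 4 (27.2%). Of the other microtubule genes, 3 were called by DESeq2 (2.78% of all genes), 2 with no filter (0.86%) and 2 within lane tag 2 (1.48%). Without both libraries 23 were called, where 11% of all genes were. With each library left out 0 to 15 were called, where 0.108% to 7.73% of all genes were. The 15 and the 7.73% were both without dcKO_Nex-Cre replicate 4. These counts were not tested against the shares of all genes. The difference of the *Tuba4a* share was -0.16 percentage points without division by length. The log2 fold change of *Tubb3* was -0.0043 with at least 10 counts in every library and -0.026 without both libraries, that of *Pafah1b1* 0.010 without both libraries and 0.030 within lane tag 2. With each library left out, *Tubb3* ran from -0.070 to 0.050, *Tubb2b* from -0.025 to 0.14, *Pafah1b1* from -0.064 to 0.042 and *Tuba4a* from -1.06 to -0.73. *Tuba4a* passed in 1 of these 8 fits. *Smarcc1* and *Dynll1* kept their direction but missed the threshold in 8 of 16 alternatives each. The cause of these shifts was not tested, except that fits without a library use fewer samples.

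The deviations of same-numbered control and mutant libraries had correlations of 0.126, 0.018, 0.135 and -0.138. Those of differently numbered libraries ran from -0.29 to 0.37, so a pairing by number is neither shown nor excluded. With the replicate block, 54 genes were called over all and none of the 45 by edgeR, with 1 at an unadjusted p under 0.05. *Tuba8* had 2 counts per library on average, too few for a test. Reads shared between near-identical tubulins and with genes on the other strand limit, among others, *Tuba1a*, *Tuba1b*, *Tuba1c*, *Tubb2a*, *Tubb2b*, *Tubb4b*, *Tuba4a*, *Kif2a* and *Tubg2*.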
